A study of Homo sapiens with 4 samples.

Results

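The genes described here are the subunits of the human proteasome with the assembly chaperones, activators and inhibitor that act on it. They were chosen by symbol, as PSM followed by a letter from A to G and a number, with the immunoproteasome subunits PSMB8, PSMB9 and PSMB10 left out. The rule found 45 of the 25268 gene symbols measured. They comprise 16 of the 20S core particle (PSMA and PSMB), 20 of the 19S regulatory particle (PSMC and PSMD) and 9 regulators (PSME, PSMF and PSMG). The 19S class, called the 19S particle below, includes its assembly chaperones PSMD5, PSMD9 and PSMD10. It lacks the subunits SHFM1 and ADRM1, whose symbols the rule did not match.

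RNA-Seq was carried out on SK-MEL-28, an established human melanoma line. The vector line carried the empty pTRIPZ vector and the MYC line a Tet-inducible MYC gene, both introduced with lentivirus and selected with geneticin (G418), which the labels also list in the culture medium. Each was grown without doxycycline (Dox) or with 0.5 µg/ml Dox for 54 h. Whether each line was a clone or a pool of transduced cells was not given in the sources used here. There was 1 library for each of the 4 conditions, so no difference below has a replicate check, no test was possible, and a condition cannot be told apart from its culture.

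The proteasome is the main machine for degrading ubiquitin-tagged proteins. Its 20S core is a barrel in which rings of alpha subunits gate the chamber and rings of beta subunits hold the cutting sites, and the 19S particle recognises, unfolds and feeds in the tagged substrates. The core cannot assemble by itself with full efficiency. The chaperones PSMG1 to PSMG4 (also called PAC1 to PAC4) guide the alpha ring, and POMP brings in the beta subunits. MYC is a transcription factor with many targets in growth and protein synthesis.

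Values are FPKM, which are scaled to transcript length and library size, so levels of different genes are compared per length. They are given in the order vector line without Dox, vector line with Dox, MYC line without Dox, MYC line with Dox. A change is the difference of log2(FPKM + 0.1) between 2 libraries, which slightly understates the change of low genes. It was computed for 11147 genes whose mean over the libraries reached 1 FPKM. The words rose and fell are kept for a rise of at least 25% or a fall of at least 20%, both a log2 change of 0.32. The counting SE beside a change estimates only the sampling of fragments and leaves out differences between cultures.

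MYC itself stood at 58.3, 54.8, 76.5 and 87.1 FPKM. It was 0.67 higher on the log2 scale in the MYC-inducible than in the vector line with Dox, 0.39 higher without Dox, and 0.19 higher with than without Dox within the MYC line. A value per symbol holds the resident and the introduced gene together. The estimated depth was 35000000 to 42000000 fragments per library. All 7 melanocyte markers were present in every library. Their summed level was 8405 to 8558 FPKM in 3 libraries and 4652 FPKM in the MYC line with Dox, and its part in the changes that follow was not tested. The summed markers of epithelium, leukocytes and endothelium reached at most 2.96, 0.0274 and 0.00665 FPKM.

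Of the 45 genes, 43 passed the minimum. The exceptions were PSMA8, the testis form of an alpha subunit, listed at 0 in every library, and PSMB11, the thymus form of a beta subunit, listed at 0, 0.0460, 0 and 0.0137 FPKM. The passing genes made up 1.08%, 1.10%, 1.08% and 1.09% of the summed FPKM of the libraries. The share of the whole set was thus close to the same in the 4 libraries, while single regulators differed.

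**Figure D1:**
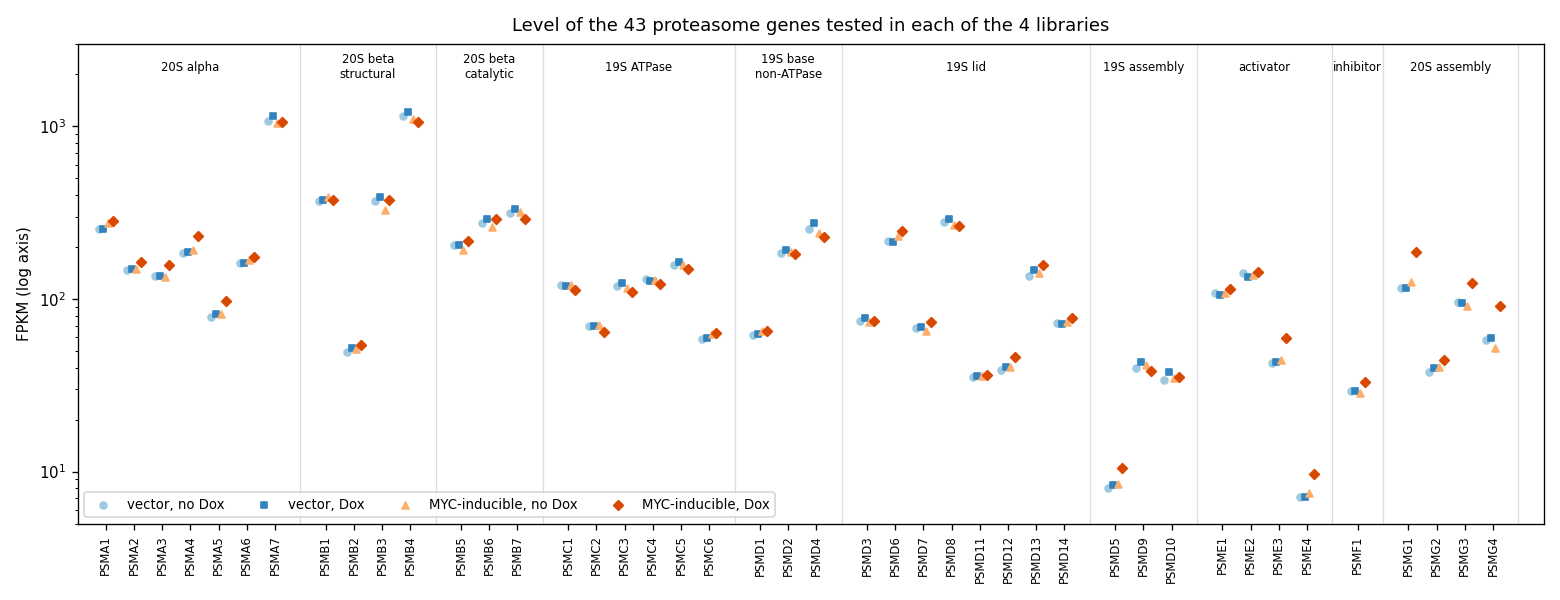
Level of each proteasome gene that passed the minimum (FPKM, log axis) in the 4 libraries, with 1 point per library and the genes ordered by role. For most core and regulatory particle genes the 4 points lie close together, while for PSMG1, PSMG3, PSMG4, PSME3 and PSME4 the point of the MYC line with Dox stands above the others.

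With Dox in the MYC line, 5 of the 43 genes rose by at least 25%, against 16.9% of all genes tested, and 0 fell by at least 20%, against 21.4% of all genes tested. All 5 were regulators, namely the 20S chaperones PSMG4, PSMG1 and PSMG3 and the activators PSME3 and PSME4. At 1.5-fold, 1 of the 43 genes rose (PSMG4), where 5.9% of all genes tested did, and 0 fell, where 8.85% did. In the vector line 0 of the 43 genes passed the 25% rise or 20% fall, against 4.08% of all genes tested. The share that rose was thus below that of all genes, and the genes that rose lay in 1 of the 3 classes.

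The 9 regulators had a median log2 change of 0.36 (range 0.07 to 0.80) in the MYC line, and 9 of 9 were higher with Dox. In the vector line their median was -0.01 and 3 of 9 were higher. In the MYC line the 14 core subunits that passed had a median of 0.12 (range -0.15 to 0.27) with 11 higher. The 20 genes of the 19S particle had a median of 0.01 (range -0.14 to 0.29) with 11 higher. This became -0.04 with 6 higher when the libraries were rescaled to the same sum. More genes of both classes were higher with Dox in the vector line. There 13 of 14 core genes were higher (median 0.04) and 16 of 20 genes of the 19S particle (median 0.05), against 54.2% of all genes tested. Over all genes tested the median in the MYC line was -0.03, the central 95% ran from -0.96 to 0.78, and 46.8% were higher. In that line most proteasome genes therefore sat in the middle of a broad distribution, with the regulators on its upper side.

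The largest change belonged to PSMG4, which forms a heterodimer with PSMG3 that acts below the growing alpha ring. PSMG4 stood at 57.9, 59.5, 51.9 and 90.4 FPKM. The library of the MYC line with Dox stood highest and the untreated MYC line lowest. The untreated MYC line was at -0.16 (counting SE 0.071) against the untreated vector line, so the change within the MYC line started from a low level. The log2 change was 0.80 (counting SE 0.065) in the MYC line and 0.04 (counting SE 0.072) in the vector line, and 2.30% of all genes tested had a higher change in the MYC line. Against the vector line with Dox the difference was 0.60. Its partner PSMG3 stood at 95.9, 94.3, 91.2 and 124 FPKM, with changes of 0.44 (counting SE 0.051) and -0.02 (counting SE 0.057). Both members of the pair were thus highest in the same library, but by different amounts, and the ratio of PSMG3 to PSMG4 was 1.66, 1.58, 1.76 and 1.37.

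PSMG1, which pairs with PSMG2 and binds the alpha ring from the start of its assembly, stood at 116.1, 115.8, 125.8 and 187.2 FPKM. Its log2 change was 0.57 (counting SE 0.028) in the MYC line and -0.00 (counting SE 0.034) in the vector line, and 6.32% of all genes tested had a higher change. It was 0.69 higher than in the vector line with Dox. Its partner PSMG2 stood at 37.9, 39.9, 40.2 and 44.4 FPKM, with changes of 0.14 (counting SE 0.055) and 0.07 (counting SE 0.060) that did not reach a 25% rise. The levels of the partners lay farthest apart in the MYC line with Dox, and the ratio of PSMG1 to PSMG2 was 3.06, 2.90, 3.13 and 4.21. The sum of the 4 chaperones was 308, 309, 309 and 446 FPKM, or 6.45%, 6.22%, 6.59% and 9.26% of the summed core subunits.

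**Figure D2:**
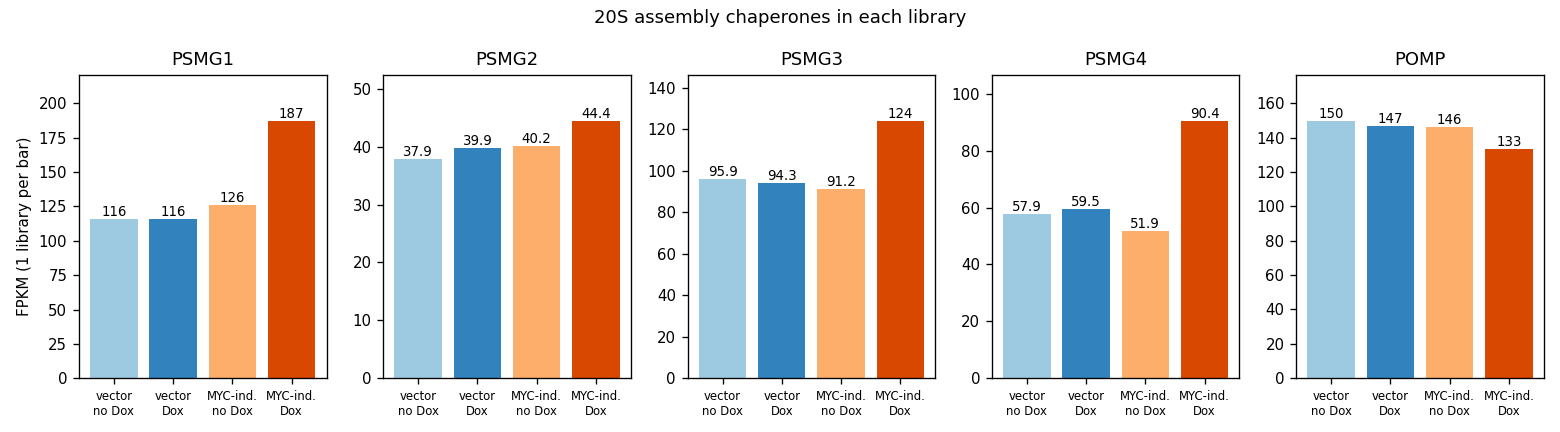
Levels (FPKM, linear axis from 0) of the 20S assembly chaperones PSMG1 to PSMG4 and POMP in the 4 libraries, with 1 bar per library. PSMG1, PSMG3 and PSMG4 are highest in the MYC line with Dox, at 187.2, 124 and 90.4 FPKM, whereas POMP is lowest there, at 133 FPKM.

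Among the activators, which dock on the ends of the core in place of the 19S particle, those of the nucleus were the ones that rose. PSME3 (PA28 gamma), which opens the core without need for ubiquitin, stood at 42.7, 43.4, 44.1 and 59.2 FPKM. Its log2 change was 0.42 (counting SE 0.051) in the MYC line and 0.02 (counting SE 0.059) in the vector line. PSME4, a large single-chain activator linked to chromatin and to sperm development, stood at 7.14, 7.11, 7.50 and 9.62 FPKM, with changes of 0.36 (counting SE 0.047) and -0.01 (counting SE 0.053). In both genes the first 3 libraries lay close together and the MYC line with Dox stood above them.

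PSME1 and PSME2, the interferon-responsive PA28 alpha and beta chains that form a mixed ring, kept close to their starting levels. PSME2 was the highest regulator outside the MYC line with Dox, at 142, 133, 137 and 144 FPKM, and its changes were 0.07 (counting SE 0.032) and -0.09 (counting SE 0.034). PSME1 stood at 108, 105, 108 and 114 FPKM. The ratio of PSME1 to PSME2 was 0.759, 0.790, 0.790 and 0.791, while that of PSME3 to PSME1 was 0.395, 0.412, 0.408 and 0.521. PSME3 thus made up more of the PA28 transcripts in the MYC line with Dox than in the other 3 libraries. PSMF1 (PI31), named as an inhibitor of the core, stood at 29.4, 29.3, 28.5 and 32.9 FPKM, with a change of 0.21 (counting SE 0.064) in the MYC line.

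PSMG1 lies at chr21:40546695-40555414 and PSME4 at chr2:54091206-54198130, both on the minus strand. PSMG4 lies at chr6:3231637-3303607 and PSME3 at chr17:40976402-40995777, both on the plus strand, and PSMG3 at chr7:1606968-1610641 on the minus strand (GRCh37, GENCODE release 44). The exons of PSMG3, PSMG4, PSME3 and PSME4 overlap genes on the opposite strand, and whether fragments were counted by strand was not given in the sources used here. These neighbours were lower with Dox in the MYC line, opposite to the genes they overlap. How fragments at shared positions were divided is not known, and their part in either change was not tested. TUBB2B and SLC22A23, which overlap PSMG4, changed by -0.81 and -0.41 in the MYC line, ACYP2, which overlaps PSME4, by -0.30, and BECN1, which overlaps PSME3, by -0.12. PSMG3-AS1, which overlaps PSMG3, was below the minimum, at 0.593, 0.566, 0.606 and 0.315 FPKM. PSMG1 overlaps no other annotated exon.

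The promoters of 4 of the genes that rose are printed here, to show what motifs they carry, with that of PSMB3, since PSMB3 and PSMD9 held both motifs searched and no other of the 39 proteasome genes with a window did. PSMG3, which also rose, had no window in the table. Each line is 1 window from 250 bases before to 50 bases after the start of transcription, 5′ to 3′ on the gene's strand. The sequences are from RefSeq (GRCh38.p14) and occur base for base in GRCh37 at the coordinates given. Capitals mark the E-box CACGTG, the sequence bound by MYC with MAX, and TGACNNNGC, the core of the antioxidant response element, which NFE2L1 and NFE2L2 bind at proteasome genes. Both strands were searched. The RefSeq starts of PSMG4 and PSME3 lie inside the longer gene spans that GENCODE gives.
PSMG1, chr21:40555328-40555627, minus strand: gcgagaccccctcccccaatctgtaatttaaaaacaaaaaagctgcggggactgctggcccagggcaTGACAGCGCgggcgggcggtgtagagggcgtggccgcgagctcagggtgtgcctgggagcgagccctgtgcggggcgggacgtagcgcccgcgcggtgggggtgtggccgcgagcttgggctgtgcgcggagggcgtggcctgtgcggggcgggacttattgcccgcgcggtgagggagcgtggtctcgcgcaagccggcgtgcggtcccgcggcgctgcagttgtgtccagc
PSMG4, chr6:3258931-3259230, plus strand: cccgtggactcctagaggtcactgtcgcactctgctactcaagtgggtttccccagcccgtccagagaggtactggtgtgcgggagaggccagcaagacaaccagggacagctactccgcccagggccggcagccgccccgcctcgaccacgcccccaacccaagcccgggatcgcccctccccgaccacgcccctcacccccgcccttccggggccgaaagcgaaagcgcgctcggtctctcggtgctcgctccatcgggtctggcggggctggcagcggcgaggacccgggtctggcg
PSME3, chr17:40985164-40985463, plus strand: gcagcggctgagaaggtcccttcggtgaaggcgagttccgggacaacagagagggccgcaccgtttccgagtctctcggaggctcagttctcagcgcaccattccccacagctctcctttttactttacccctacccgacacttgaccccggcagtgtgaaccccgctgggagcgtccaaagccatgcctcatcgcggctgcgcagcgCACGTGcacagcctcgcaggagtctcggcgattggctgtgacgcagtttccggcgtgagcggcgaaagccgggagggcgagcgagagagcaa
PSME4, chr2:54198081-54198380, minus strand: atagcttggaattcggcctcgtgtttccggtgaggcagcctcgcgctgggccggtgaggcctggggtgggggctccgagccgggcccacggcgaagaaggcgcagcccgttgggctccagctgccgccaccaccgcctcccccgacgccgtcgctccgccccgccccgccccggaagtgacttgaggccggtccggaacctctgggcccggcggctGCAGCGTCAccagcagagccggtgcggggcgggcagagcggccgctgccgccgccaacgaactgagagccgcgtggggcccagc
PSMB3, chr17:36908744-36909043, plus strand: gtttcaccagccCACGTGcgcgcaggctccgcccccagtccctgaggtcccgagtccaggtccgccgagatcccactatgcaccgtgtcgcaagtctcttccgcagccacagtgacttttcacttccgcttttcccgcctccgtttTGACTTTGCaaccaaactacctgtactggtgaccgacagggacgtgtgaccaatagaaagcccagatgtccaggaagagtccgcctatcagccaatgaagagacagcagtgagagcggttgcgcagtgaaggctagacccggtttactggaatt
The window of PSME3 held an E-box 42 bases before the start, and that of PSMB3 held one 238 bases before it. The antioxidant core lay 183 bases before the start of PSMG1, 34 before that of PSME4 and 104 before that of PSMB3. The window of PSMG4, the gene with the largest change, held neither motif.

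Of the 45 genes, 39 had a window. The antioxidant core was found in 14 of the 39 (35.9%), compared with 19.8% of 8381 tested genes with a window and 16.1% of all 27305 genes with one. The E-box was found in 3 of the 39 (7.69%; PSMB3, PSMD9 and PSME3), compared with 13.2% of the tested genes and 8.77% of all genes with a window. Genes can have several windows, and the 39 genes had 47. By window, the antioxidant core was in 14 of the 47 (29.8%) against 13.3% of all 35116 windows. The E-box was in 3 of the 47 (6.38%) against 7.26%. The 14 genes with the antioxidant core had a median log2 change of 0.11 in the MYC line, and the 23 tested genes without it 0.08, which lay close together. The 3 genes with an E-box had a median of 0.19, from -0.11 (PSMD9) to 0.42 (PSME3), and the 34 without it 0.07. Over all tested genes with a window the medians were 0.02 with an E-box (1109 genes) and -0.03 without (7272 genes). A link of motif and change was not tested, and a match is a description of letters and not of a bound site.

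In the core particle the alpha ring had the higher median. All 7 alpha subunits that passed were higher with Dox in the MYC line, with a median of 0.15 (range 0.02 to 0.27), and none reached a 25% rise. In the vector line 6 of 7 were higher with Dox, with a median of 0.02. For the MYC line, rescaling the libraries to the same sum left 5 of 7 higher, and comparison with the Dox-treated vector line left 6 of 7. PSMA4 had the largest change of the core, with 185, 187, 192 and 232 FPKM and changes of 0.27 (counting SE 0.025) and 0.02 (counting SE 0.028). PSMA5 had 79.0, 81.6, 81.8 and 97.7 FPKM and a change of 0.26 in the MYC line. PSMA3 had 136, 135, 134 and 158 FPKM, with changes of 0.24 and -0.01, the latter the lowest of the core in the vector line. In these 3 alpha genes the MYC line with Dox was the highest library, and the other 3 libraries were close together.

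PSMA7, the most abundant alpha subunit, differed from them. Its levels were 1075, 1151, 1046 and 1059 FPKM, so the highest library was the vector line with Dox. Its change was 0.02 in the MYC line and 0.10 in the vector line, the largest of the core there. Against the vector line with Dox, PSMA7 in the MYC line was at -0.12.

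The 7 beta subunits that passed had a median change of 0.09 (range -0.15 to 0.19), and 4 were higher and 3 lower. Against the vector line with Dox their median was -0.01, with 2 higher and 5 lower. PSMB7, which carries the trypsin-like site, had the lowest change of the core, with 316, 331, 320 and 289 FPKM and changes of -0.15 (counting SE 0.020) and 0.07 (counting SE 0.020). PSMB5 and PSMB6, which carry the chymotrypsin-like and caspase-like sites, had changes of 0.16 and 0.15. The 3 cutting subunits thus did not move as a unit. In the vector line without Dox PSMB7 was the most abundant of them, at 316 FPKM against 275 for PSMB6 and 205 for PSMB5, while in the MYC line with Dox PSMB7 and PSMB6 stood at 289 and 289 FPKM and PSMB5 at 216 FPKM.

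PSMB4, a non-catalytic beta subunit and the most abundant gene of the whole set in 3 of the 4 libraries, stood at 1151, 1210.5, 1102 and 1054 FPKM. Its changes were -0.06 (counting SE 0.011) and 0.07 (counting SE 0.011), and it was at -0.20 against the vector line with Dox. PSMA7 stood above it in the MYC line with Dox. PSMB2 was the lowest of the core in every library, at 49.1, 51.7, 51.2 and 54.3 FPKM. PSMB3, whose promoter held both motifs, stood at 369, 392, 326 and 373 FPKM. Its change of 0.19 (counting SE 0.022) in the MYC line started from an untreated level 0.18 below that of the vector line, the largest gap of any proteasome gene between the untreated lines.

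In the 19S class the medians of the ATPase hexamer and of the lid genes stood on opposite sides of 0 in the MYC line. The 6 ATPases PSMC1 to PSMC6, which unfold substrates, had a median change of -0.08 (range -0.14 to 0.02) in the MYC line, and 5 of 6 were lower. None reached a 20% fall, and the median stayed below 0 under every scaling tried. PSMC2 had the lowest change of the 19S class, with 69.8, 69.8, 70.9 and 64.6 FPKM and changes of -0.14 (counting SE 0.034) and 0.00 (counting SE 0.035). PSMC4 had the lowest change of the particle in the vector line, with 130.0, 126, 129 and 123 FPKM and a change of -0.04. PSMC6 was the exception among the ATPases, at 58.4, 59.0, 62.8 and 63.9 FPKM, a change of 0.02.

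The 8 lid subunits of the class had a median of 0.09 (range -0.02 to 0.19) in the MYC line. Of these, 7 were higher, 5 after rescaling to the same sum and 6 against the vector line with Dox. In the vector line 6 of the 8 were higher with Dox, with a median of 0.04. The lid subunit SHFM1, not counted here, had a change of -0.14 in the MYC line. PSMD12, PSMD7 and PSMD13 had the largest changes of the lid in the MYC line, at 0.19, 0.17 and 0.16. In the vector line they had changes of 0.06, 0.02 and 0.11. PSMD14, which removes ubiquitin chains as the substrate enters, had a change of 0.08. PSMD8, the most abundant gene of the 19S class, stood at 278, 292, 269 and 264 FPKM, a change of -0.02 in the MYC line. PSMD11 was the steadiest of all proteasome genes, at 35.3, 35.7, 35.8 and 36.2 FPKM, with a ratio of highest to lowest of 1.03. Of the other base subunits, PSMD1 and PSMD2, the large scaffolds, had changes of 0.01 and -0.04, and the ubiquitin receptor PSMD4 stood at 254, 275, 239 and 229 FPKM. PSMD4 was lowest in the MYC line with Dox and highest in the vector line with Dox, 0.26 apart.

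The chaperones of the 19S base, PSMD5, PSMD9 and PSMD10, had no common direction. PSMD5, which holds the ATPase PSMC2 during assembly, was the lowest gene of the particle, at 8.03, 8.32, 8.50 and 10.5 FPKM, with changes of 0.29 (counting SE 0.085) and 0.05 (counting SE 0.095). The ratio of PSMD5 to PSMC2 was 0.115, 0.119, 0.120 and 0.162. PSMD10 (gankyrin) stood at 34.0, 37.5, 35.1 and 35.1 FPKM, with 0.00 in the MYC line and 0.14 (counting SE 0.068) in the vector line, the largest change of any proteasome gene there. PSMD9 was at -0.11 and 0.10. Their median was 0.00, whereas the 4 chaperones of the core had a median of 0.51.

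Between the untreated lines, 0 of the 43 genes differed by a 25% rise or 20% fall, where 3.61% of all genes tested did, and the range was -0.18 to 0.12. Between the lines with Dox, 6 of the 43 were at least 25% higher in the MYC line, against 18.2% of all genes tested, and 0 were lower, against 20.3%. The 6 were the 5 regulators that rose and PSMD5, which was 0.33 higher. When the change of the vector line was subtracted from that of the MYC line, 5 of the 43 rose, against 16.2% of all genes tested, and 0 fell, against 22.6%. These comparisons share libraries and are not independent of each other.

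By the median, the core and 19S genes varied less over the 4 libraries than genes in general, and the regulators did not. The median ratio of highest to lowest level was 1.12 over the 43 genes (1.12 in the core, 1.10 in the 19S particle and 1.35 in the regulators), compared with 1.26 over all genes tested. The ratio was under 1.1 in 14 of the 43 genes (32.6%) and in 11.9% of all genes tested. By class it was under 1.1 in 10 of 20 genes of the 19S particle (50%), 2 of 14 of the core (14.3%) and 2 of 9 regulators (22.2%). The COP9 signalosome, a complex built like the lid, had a median ratio of 1.10, with 4 of 9 genes under 1.1 (44.4%). The sets were not matched for level.

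The order of levels within a class differed mainly in the MYC line with Dox. The core ran from PSMB4 to PSMB2, and the order of its 14 genes was identical in both vector libraries, with 4 genes at another rank in the MYC line without Dox and 6 with Dox, each by 1 rank. Of the 20 genes of the 19S particle, 11 stood at another rank than in the untreated vector line in the MYC line with Dox, by up to 2 ranks, compared with 4 in the vector line with Dox and 2 in the untreated MYC line. Of the 9 regulators, 4 stood at another rank in the MYC line with Dox and 0 in the others. The summed core subunits stood at 4771, 4976, 4689 and 4817 FPKM and the summed 19S subunits, chaperones left out, at 2074, 2137, 2077 and 2076 FPKM. Their ratio was 2.30, 2.33, 2.26 and 2.32. The ratio of the medians, in which the very abundant PSMB4 and PSMA7 weigh no more than other subunits, was 1.94, 1.93, 1.97 and 2.37. The sums thus kept their proportion, whereas the medians lay farthest apart in the MYC line with Dox. The medians rest on the few genes at the middle ranks. For the core these were PSMB6 and PSMB5 (261 and 193 FPKM) in the untreated MYC line and PSMA1 and PSMA4 (284 and 232 FPKM) with Dox. For the 19S subunits it was PSMC3 in both, at 115 and 109 FPKM.

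A list of 33 companion genes, which bind the proteasome, supply its substrates or control its genes, was chosen with earlier results known, and 32 of them passed the minimum. In the MYC line 6 of the 32 rose and 3 fell, against 16.9% and 21.4% of all genes tested, with a list median of -0.02. In the vector line 0 rose or fell, against 4.08% of all genes tested. UCHL5, a ubiquitin hydrolase bound to the 19S particle through ADRM1, stood at 17.3, 17.8, 18.1 and 30.8 FPKM, with changes of 0.77 (counting SE 0.067) and 0.04. Its ratio to ADRM1 was 0.0688, 0.0658, 0.0759 and 0.115. KIAA0368 (ECPAS), a scaffold that binds 26S proteasomes, rose by 0.33.

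POMP, the chaperone of the beta ring, did not share the rise of the PSMG genes. It stood at 150, 147, 146 and 133 FPKM, a change of -0.14 (counting SE 0.042). The ratio of PSMG1 to POMP was 0.776, 0.789, 0.859 and 1.41. SHFM1, the smallest lid subunit, also had a change of -0.14.

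The regulators of proteasome transcription were lower or mixed. NFE2L1, the factor that raises proteasome genes when the proteasome is inhibited, fell from 47.1 to 35.7 FPKM in the MYC line, a change of -0.40 (counting SE 0.033), and stood at 45.2 and 46.3 FPKM in the vector line. MAFF, a small partner of such factors, fell by 0.65 in the MYC line and had a change of 0.24 in the vector line, while MAFK had 0.38 (counting SE 0.232) at 3.13 to 4.67 FPKM. Of the 5 shuttle genes, which carry ubiquitinated proteins to the proteasome, UBQLN4 rose by 0.46 and UBQLN2 fell by 0.40. Of the 6 genes of ubiquitin supply, RPS27A, a fusion of ubiquitin and a ribosomal protein, rose by 0.52. Among the 4 genes of the VCP segregase, which pulls substrates out of complexes, FAF1 rose by 0.39. The other members, VCP, NPLOC4 and UFD1L, had changes of -0.19, -0.29 and -0.30, and the median of the 4 was -0.24.

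Other multi-subunit complexes give a measure of how the core and the 19S particle compare. The 8 subunits of the CCT chaperonin had a median change of 0.51 in the MYC line, and 7 rose, where 16.9% of all genes tested did. The 13 subunits of the translation factor eIF3 had a median of 0.35 with 7 risen, and the 9 of the COP9 signalosome, which is built like the lid, a median of 0.07 with 0 risen. In the vector line the medians were 0.04, 0.05 and 0.03. In the MYC line the median of the 4 PSMG chaperones (0.51, range 0.14 to 0.80) was therefore near that of CCT (range 0.32 to 0.61). The medians of the core (0.12) and the lid (0.09, without SHFM1) were near that of COP9. Those of the 19S class (0.01), its ATPases (-0.08) and its other base subunits (-0.04) lay below that of COP9.

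**Figure D3:**
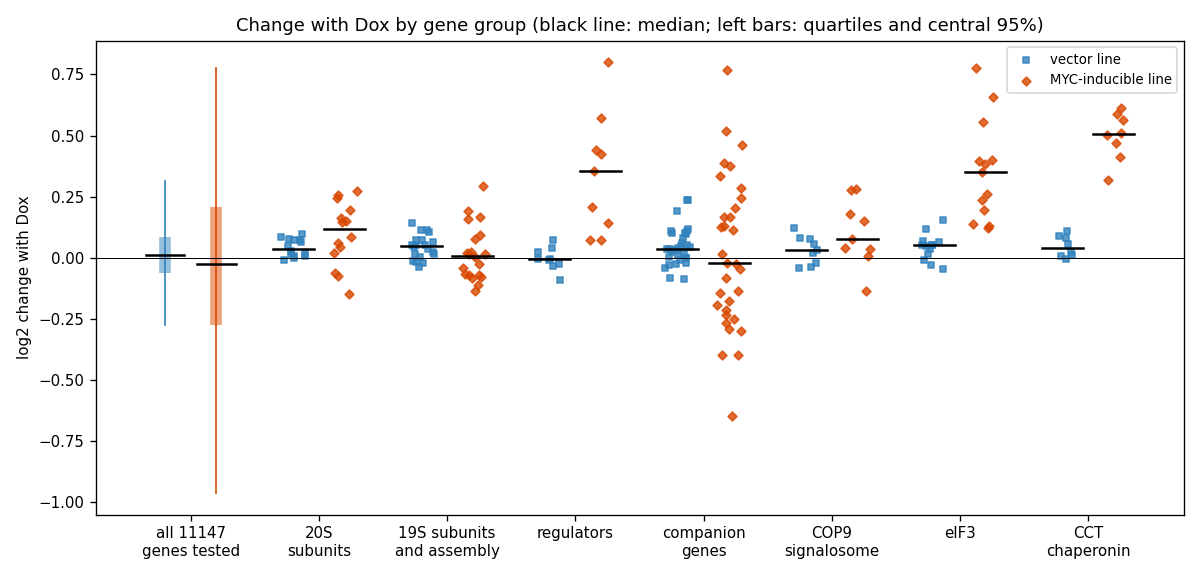
Log2 change with Dox (vertical axis) by gene group, for the vector line (squares) and the MYC line (diamonds), with 1 point per gene and a black line at the median. The bars at the left show the quartiles and the central 95% of all genes tested, and the medians of the regulators, eIF3 and CCT in the MYC line stand at 0.36, 0.35 and 0.51.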

How the data were processed

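For the 4 RNA-Seq libraries, the authors deposited a table of FPKM with 1 value per symbol and library and without counts. Per the labels, the submitters' processing notes name TopHat2 2.0.14, Cufflinks and hg19, and the annotation and strand setting were not given in the sources used here. Of its 27032 rows, 1 that names no gene was dropped, and values were added up over rows for 609 symbols that recur, none of them a proteasome gene. FPKM are scaled by each library's total, so a large change in some genes shifts the others.

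From these values, log2(FPKM + 0.1) was compared between pairs of libraries with pandas 2.3.3 and numpy 2.4.6 under Python 3.11.15, and plotted with matplotlib 3.10.9. No count model was fitted and no test made. The depth was estimated from the smallest steps of low values in 159 genes with a single transcript, and the counting SE from that depth and the coding length of GENCODE release 44, which overstates the error because untranslated bases are left out. The calculation was tested on simulated data.

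The genes, lists and rules were chosen with earlier results of these data known. Genes named with all values were those that rose by 25% or fell by 20% in the MYC line or between the lines with Dox, the largest and smallest changes and the highest and lowest levels of each class, and genes under 1 FPKM. Other genes were named for their role after their values were seen. The alternatives were other pseudocounts, filters, scalings, folds, reference libraries and summaries.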

Additional observations from a re-analysis of the deposited data

Results flagged for a closer look

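In 4 genes the 2 lines moved in opposite directions with Dox, each beyond its approximate 95% counting interval around 0. With 1 library per condition, whether the lines differ was not tested. PSMB4 had a log2 change of -0.064 in the MYC line and 0.073 in the vector line. PSMB7 had changes of -0.15 and 0.066, so both are beta subunits lower with Dox in the MYC line. PSME2, the PA28 beta chain, had the opposite pattern, with 0.070 and -0.092. MAFF, a small MAF protein, had -0.65 and 0.24. Only the MAFF change in the MYC line passed a 25% rise or 20% fall.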

How the results depend on the processing

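The medians of the classes were recalculated under each alternative that bears on them, and the other folds bear only on the counts. In the MYC line the median log2 change ranged from 0.28 to 0.40 for the regulators, from 0.44 to 0.55 for the PSMG chaperones, from 0.07 to 0.16 for the core and from -0.05 to 0.05 for the 19S particle, whose direction thus depended on the setting. The median of all genes ranged from -0.07 to 0.02. The count of genes past the fold in the MYC line, 1 at 1.5-fold, was 2 with median-ratio scaling, 2 in the comparison with the Dox-treated vector line, 5 with a 25% rise as the limit, 0 at 2-fold and 0 without PSMG4, the last chosen after seeing the data. Of 90 recalculated values of single genes, 5 moved by more than the spread of the vector line over all genes (0.107), all of them in that comparison with the vector line, and 6 changed sign. Those 5 were PSMA7 at -0.12, PSMB4 at -0.20, PSMD8 at -0.15, PSMG1 at 0.69 and PSMG4 at 0.60. No paired analysis was possible because every condition was sequenced as 1 library, and no library could be left out. Depth was estimated and not recorded, at least about 441 fragments stood behind each tested proteasome gene, and 20 of the 45 genes share exon positions with another gene.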
